A study of Arabidopsis thaliana with 6 samples.

Results

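GIGANTEA (*GI*, AT1G22770) was measured by probe set 264211_at, which the platform annotation pairs with this gene alone. It was the 1 member examined here, of 22746 probe sets left on the Affymetrix ATH1 array once control probe sets were set aside and of 13513 probe sets with exactly 1 named gene. Total RNA came from whole Arabidopsis seedlings of the Nossen (No-0) accession, grown in light for 5 days. The wild type, in 3 samples, was compared with the *fbp7-3* mutant, also in 3, a line of 1 allele of *FBP7* (AT1G21760) in the same accession. *FBP7* encodes an F-box protein, the substrate-binding kind of subunit of SCF ubiquitin ligases. Each sample was hybridised to 1 array, and the unit is the MAS5 signal, a linear brightness scaled alike on every array. Lysis was separate for each sample by the labels, which do not state whether plants were grown apart. The spread between these samples may therefore be technical. P-values and standard errors come from limma, which combines each probe set's own spread with that of probe sets of like brightness. The latter had the greater weight (prior degrees of freedom 10.4 against residual degrees of freedom 4). No source used here gives the hour of harvest or the light regime.

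*GI* encodes a large protein found in plants that acts in the circadian clock and in the timing of flowering by day length. Its transcript is known to cycle over the day and to peak towards evening, and its protein binds the blue-light F-box receptors ZTL, FKF1 and LKP2. Through FKF1 it relieves repression of *CO*, which activates the florigen gene *FT*. *GI* also has known roles in cold, salt and oxidative stress tolerance and in starch metabolism.

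*GI* was chosen by its signals on these wild type and mutant arrays, with their difference known, so its levels in the mutant and the wild type are a description and carry no test. Its signal was 570.5, 562.6 and 461.2 in wild type replicates 1, 2 and 3. It was 742.4, 780.2 and 896.8 in mutant replicates 1, 2 and 3. The groups did not overlap, and the dimmest mutant array lay 171.9 above the brightest wild type array, a ratio of 1.30. Means were 531 ± 61.0 (SD, n = 3) in the wild type and 806 ± 80.5 (SD, n = 3) in the mutant, a ratio of mean signals of 1.52. On the log2(signal + 16) scale the mutant was higher by 0.59, with a standard error of 0.12 from the limma fit to all tested probe sets. In a whole-seedling extract, more cells that express *GI* and more *GI* RNA per cell cannot be told apart.

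The spread of *GI* within groups was close to that of other probe sets of similar brightness. Its pooled within-group SD was 0.15 on the log2 scale, against a median of 0.14 for the 1000 probe sets nearest to it in mean level. Of those 1000, 55.3% had a smaller SD. Wild type replicate 3 stood lowest in its group, 0.19 below the group mean on the log2 scale, and mutant replicate 3 stood highest, 0.15 above its mean. The difference between the groups was 0.49 without wild type replicate 3, 0.51 without mutant replicate 3 and at most 0.65 without any 1 of the other 4 arrays. With 3 arrays a group, precision is limited by their number.

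*GI* was among the brighter probe sets of every array. In wild type replicates 1, 2 and 3 it stood at rank 5843, 6011 and 6908 from the brightest of 22746, which is percentile 74.3, 73.6 and 69.6. In mutant replicates 1, 2 and 3 it stood at rank 4550, 4424 and 3822, or percentile 80.0, 80.5 and 83.2. Its rank was therefore higher on each mutant array than on any wild type array, and its signal over the array median ran from 2.40 to 3.00 on wild type arrays and from 3.93 to 4.47 on mutant arrays. Array medians themselves lay between 188.7 and 200.7. Probe sets differ in how strongly they bind their target, so these ranks place *GI* among signals and do not order transcripts by abundance.

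**Figure D1:**
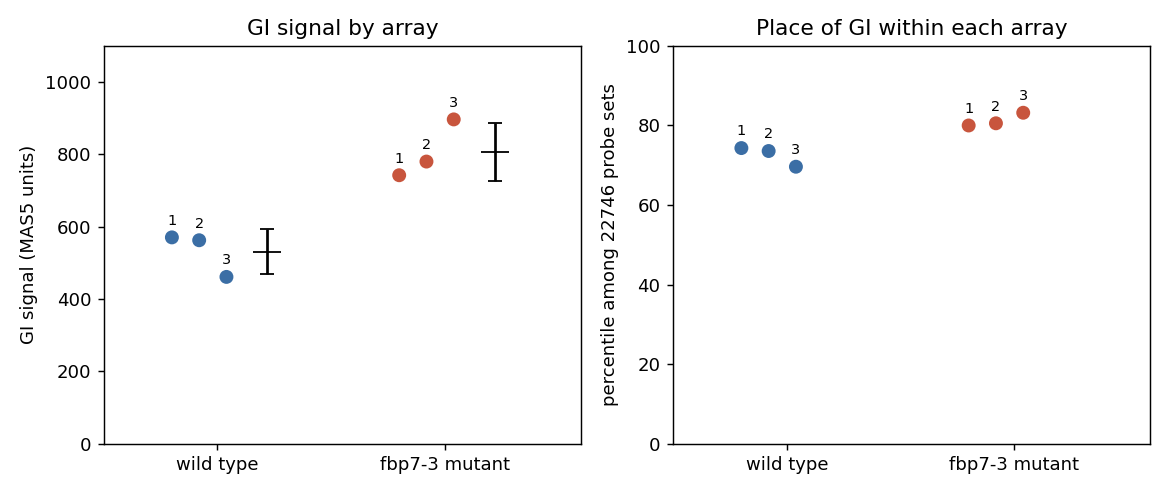
Left, the MAS5 signal of GI (vertical axis, linear) on each array, numbered by replicate, with the group mean and SD as black bars; right, the percentile of the same signal among 22746 probe sets of the array. The 3 mutant arrays lie between 742.4 and 896.8 and above the 3 wild type arrays, which lie between 461.2 and 570.5, and the percentiles part in the same way.

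A measure of RNA integrity also did not overlap between the groups. Among tissue marker genes, AT1G22690 and *M17* passed the test (limma adjusted p under 0.05), as did 1.06% of all tested probe sets. The part of RNA integrity or of the marker genes in the difference of *GI* was not tested. The mean log2 ratio of 3′ to 5′ signal over 6 control pairs (actin, GAPDH and ubiquitin) was 0.998, 0.878 and 0.989 in wild type replicates 1, 2 and 3. It was 1.07, 1.10 and 1.33 in mutant replicates 1, 2 and 3. Within the mutant, the arrays stood in the same order for the ratio and for *GI*. Within the wild type they did not, since replicate 2 had the lowest ratio and replicate 3 the lowest *GI*. With the ratio as a covariate in the fit, the difference of *GI* was 0.46 rather than 0.59. The ratio did not overlap between the groups, so such a fit cannot tell it apart from genotype.

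**Figure D2:**
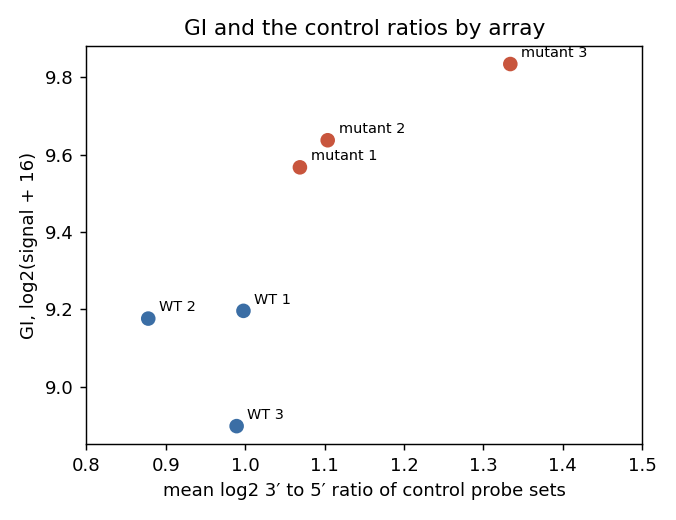
GI on the log2(signal + 16) scale (vertical axis) against the log2 ratio of 3′ to 5′ signal averaged over the 6 control pairs (horizontal axis), 1 point per array, wild type in blue and mutant in red. The mutant arrays lie to the right at 1.07 to 1.33 and above, and the wild type arrays at 0.878 to 0.998 and below.

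A gene is called measured here if the annotation paired a probe set with it alone. That annotation left 8730 probe sets unlisted, so the array may hold probes for other genes too. Of the marker lists, that for guard cells and epidermis had 2 of 11 genes measured. Their summed signal was 1118 to 1470 on wild type arrays and 2170 to 2590 on mutant arrays. Most of this sum came from AT1G22690 alone, at 1027.4 to 1332 on wild type arrays and 1994.4 to 2385.6 on mutant arrays. *FMA* (FAMA), which encodes a bHLH factor of guard cell differentiation, had signals of 127.3, 137.7 and 90.5 in wild type replicates 1, 2 and 3 and 175.2, 155.2 and 204.4 in mutant replicates 1, 2 and 3. These groups did not overlap, with the mutant higher, as for 8.45% of all tested probe sets. The log2 difference of 0.54 ± 0.21 (SE) did not pass (limma adjusted p = 0.299). The other marker, AT1G22690, rose and is described below with the neighbours of *GI*. For roots and root hairs, 3 of 14 genes were measured, summing to 377.1 to 584.9 on wild type arrays and 303.6 to 387.6 on mutant arrays. None of the 3 passed; the peroxidase gene AT3G49960 had a log2 difference of −0.75 ± 0.25 (limma adjusted p = 0.218) and the root hair expansin gene *EXPA18* one of −0.30 ± 0.18 (adjusted p = 0.558). Of the seed and embryo markers, 3 of 16 were measured, with sums of 373.5 to 1745 on wild type arrays and 171.8 to 324.7 on mutant arrays. Of these, *M17*, of the late embryogenesis abundant type, fell by 2.02 (limma adjusted p = 0.0372), and AT3G01570, which did not pass, was at −1.02 ± 0.37 (adjusted p = 0.279). The signal of *M17* was 399.1, 1236.4 and 201.2 in wild type replicates 1, 2 and 3, so that replicate 2 stood far above the others, and 124.5, 112.5 and 78.3 in mutant replicates 1, 2 and 3. Its log2 difference was −1.33 without wild type replicate 2 and −0.99 with the RNA quality ratio as a covariate. The call of *M17* was lost when replicate 1 or 2 of the wild type, or replicate 2 or 3 of the mutant, was left out (adjusted p = 0.0535 to 0.186). No vascular marker of 14 listed had a probe set with 1 named gene.

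None of the clock, photoperiod or light genes measured beside *GI* passed the test. Lists of core clock, photoperiod and flowering, and light signalling genes held 135 loci, of which 18 had a probe set with 1 named gene and 16 passed the filter on dim signals. Of the 16, 0 passed in either direction (limma, Benjamini-Hochberg adjusted p under 0.05), and over all 17059 tested probe sets 1.06% did, 0.522% higher and 0.533% lower in the mutant. At an unadjusted p under 0.05 there was 1 of 16, against 11.8% of all tested. Groups did not overlap for 2 of the 16, against 17% of all tested: 1 was higher in the mutant, against 8.45%, and 1 lower, against 8.56%. The median log2 difference of the 16 was −0.01, with 8 above 0, and that of all tested probe sets was −0.001, with 49.9% above 0. The genes for CCA1, LHY, TOC1, the PRR proteins, ZTL, FKF1, CO and FT were not among those with a probe set of 1 named gene and were not analysed here.

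Among the 8 tested core clock genes, *FIO1*, an RNA methyltransferase gene whose mutants have a long period, had the largest difference in the direction of *GI*. Its signal was 145.9, 122 and 140.6 in wild type replicates 1, 2 and 3 and 157.3, 191.1 and 185.5 in mutant replicates 1, 2 and 3. The groups did not overlap, and the log2 difference was 0.35 ± 0.18 (SE; limma adjusted p = 0.477). *STIPL1*, which encodes a splicing-related protein that affects the period, had a mean of 333 ± 34.5 (SD, n = 3) in the wild type and 400.2 ± 52.8 (n = 3) in the mutant, with overlapping groups. Its log2 difference was 0.25 ± 0.14 (limma adjusted p = 0.522). *COR27*, a cold-induced gene that feeds back on the clock, had a log2 difference of 0.23 ± 0.13 (limma adjusted p = 0.546).

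The other core clock genes lay closer to 0 or below it. *TIC*, which encodes a nuclear regulator of the clock, was at 0.06 ± 0.12 (limma adjusted p = 0.883) and *XCT*, a gene that affects period length, at 0.05 ± 0.21 (adjusted p = 0.963). The listed loci AT4G33980 and AT4G01280 were at 0.005 ± 0.16 and −0.03 ± 0.17. AT5G52660, a further locus of the list, had signals of 238.9, 251.1 and 202.3 in wild type replicates 1, 2 and 3, against 254, 166.9 and 108.2 in mutant replicates 1, 2 and 3. Mutant replicate 1 was thus the brightest of the 6 arrays and mutant replicate 3 the dimmest, and the log2 difference was −0.43 ± 0.24 (limma adjusted p = 0.513). The summed signal of the 8 genes was 3227 to 3357 on wild type arrays and 3319 to 3673 on mutant arrays.

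In the photoperiod and flowering list, 6 of 42 genes were tested, and 5 of them had a log2 difference below 0, with a list median of −0.24. *SNZ*, which encodes an AP2-type repressor of flowering, had signals of 163.6, 144.4 and 185 in wild type replicates 1, 2 and 3. They were 87.1, 99.1 and 110.5 in mutant replicates 1, 2 and 3, so the groups did not overlap in the direction opposite to *GI*. Its log2 difference was −0.65 ± 0.20 (limma adjusted p = 0.173), and it was the 1 gene of the 16 with an unadjusted p under 0.05. *SMZ*, which encodes a related AP2-type repressor, was at −0.31 ± 0.17 (limma adjusted p = 0.507), with means of 224 ± 25.7 (SD, n = 3) and 178 ± 19.2 (n = 3). Neither passed the threshold.

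*SPY*, which encodes an O-fucosyltransferase known to bind GI, was at 0.11 ± 0.13 (limma adjusted p = 0.799). *LD*, a homeodomain gene of the autonomous flowering pathway, was at −0.18 ± 0.19 (limma adjusted p = 0.773) and *AGL24*, a MADS-box promoter of flowering, at −0.16 ± 0.35 (adjusted p = 0.915). The listed locus AT2G34140 was at −0.38 ± 0.25 (limma adjusted p = 0.615). A pair of listed genes was too dim to be tested. AT1G69570 had signals of 6.8, 9.6 and 32.7 in the wild type replicates 1, 2 and 3 and 46.5, 49.3 and 48.8 in the mutant ones, and *FD*, which encodes the bZIP partner of FT, ranged from 7.3 to 20.8 over the 6 arrays. On each array the 25th percentile of signal was between 39.2 and 49.7, so both genes lay in or near the range where MAS5 signals are noisy.

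Of the light signalling list, 2 of 47 genes were tested. *HYH*, which encodes a bZIP factor related to HY5, was at 0.16 ± 0.26 (limma adjusted p = 0.863), and *FHL*, which acts in nuclear import of phytochrome A, was at −0.04 ± 0.23 (adjusted p = 0.971). From the list of rhythmic output and starch genes 3 of 36 were tested, with a median of 0.02, and none passed. *DPE1*, which encodes the plastid disproportionating enzyme, was at 0.12 ± 0.11 (limma adjusted p = 0.755) and *SBE2.2*, a starch branching enzyme gene, at −0.12 ± 0.11 (adjusted p = 0.729). *PWD*, which encodes phosphoglucan water dikinase, had signals between 2458 and 2834 on all 6 arrays.

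**Figure D3:**
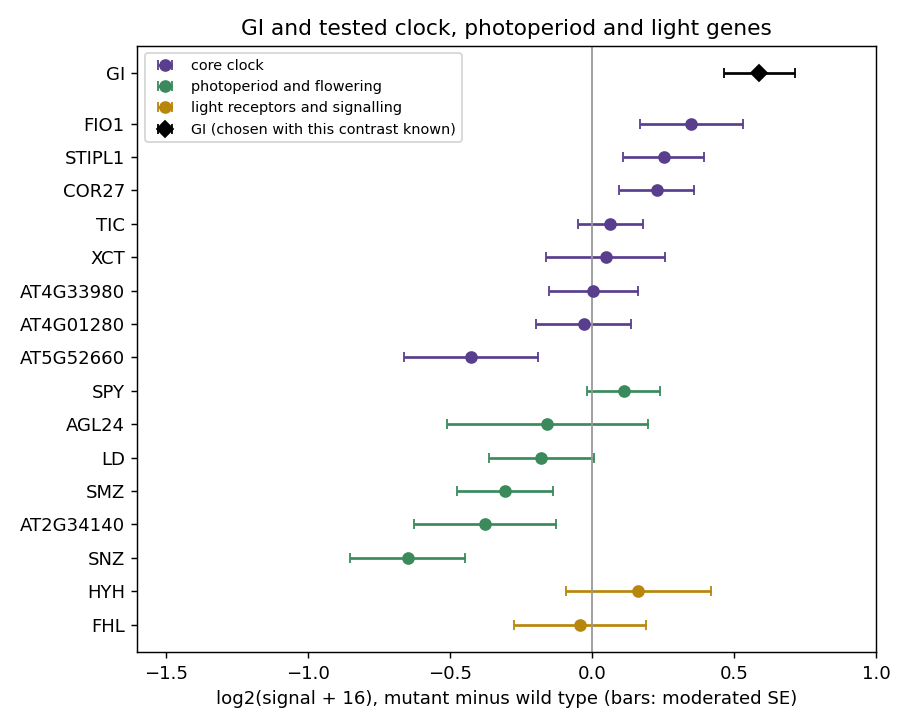
Difference on the log2(signal + 16) scale, mutant minus wild type (horizontal axis), with moderated SE bars, for GI (diamond) and the 16 tested genes of the core clock, photoperiod and flowering, and light signalling lists. GI stands at 0.59, the other genes between −0.65 and 0.35, and none of these 16 passed the threshold.

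The genes whose values followed *GI* most closely were found by the root mean square difference between profiles. Each profile held the log2 values of the 6 arrays, centred on the gene's own mean. Over 9444 tested probe sets with 1 named gene, the median distance to *GI* was 0.369 on the log2 scale, and a gene with the same value on every array would lie at 0.320. The 10 nearest genes lay between 0.0569 and 0.0998, and the next one, AT5G01210, at 0.1001. Since *GI* separated the groups, genes near it had to do so too, and all 10 had higher signals on each mutant array than on any wild type array. The choice of these genes fixed the direction of their group differences, so p-values from the fit over all probe sets are not given for them. Of the 10, 2 lie on chromosome 1, where 26% of the tested single-gene probe sets lie. They are AT1G67620 and AT1G21670, and the locus number of AT1G21670 is close to that of *FBP7* (AT1G21760). Whether this position bears on its signal was not tested.

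The nearest profile was that of AT1G67620, at 0.0569, with signals of 191, 193.9 and 140.8 in wild type replicates 1, 2 and 3. Its signals were 253.7, 249.9 and 285.1 in mutant replicates 1, 2 and 3, so that wild type replicate 3 was lowest and mutant replicate 3 highest, as for *GI*. *XTH16*, which encodes a xyloglucan endotransglucosylase that remodels cell walls, followed at 0.0603. It had signals of 330.9, 307 and 267.1 in wild type replicates 1, 2 and 3 and 468.1, 470.4 and 512.5 in mutant replicates 1, 2 and 3. AT5G12220 lay at 0.0775, AT5G18600 at 0.0796, AT4G01870 at 0.0835 and AT1G21670 at 0.0890. AT2G19280, AT2G01900, AT2G41610 and AT5G10695 completed the 10, at 0.0949, 0.0969, 0.0971 and 0.0998. AT2G01900 and AT2G41610 were dim, with wild type signals of 32.5 to 37.7 and 41.4 to 51.9. The 25th percentile of signal was between 39.2 and 49.7 on each array, so these values are uncertain. Wild type replicate 3 was the dimmest of the 6 arrays for all 10.

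The order of likeness was sensitive to single arrays. Of the 10 genes, 1 remained among the 10 nearest without wild type replicate 3, 4 without wild type replicate 2, and 5 without wild type replicate 1 or mutant replicate 3. Without mutant replicate 1 or mutant replicate 2, 6 remained. By Pearson correlation in place of distance, 3 of the 10 remained. None of the 10 was on any of the clock, flowering, light, starch or marker lists. The lists held few of the 9444 candidates: 16 clock, photoperiod and light genes, and at most 3 from any other list. Most choices of 10 genes would therefore include none of them. Among the 9444, *STIPL1* stood at rank 159 and *FIO1* at rank 229 from *GI*, *SNZ* at rank 9051 and AT5G52660 at rank 9057. Of the 16 tested clock, photoperiod and light genes, 5 (31.2%) lay nearer to *GI* than a flat profile, as did 30.7% of all 9444. The guard cell gene *FMA* stood at rank 12, and the other measured marker of its list, AT1G22690, at rank 114. Both ranks were picked out after the values were seen. Both genes separated the groups, as *GI* did, which by itself brings a profile nearer to that of *GI*.

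Profiles opposite to that of *GI* were found in the same way, by distance to its mirror image. The 5 nearest were AT2G43800 at 0.0363, the histone H2B gene *HTB2* at 0.0596, the expansin gene *EXPA4* at 0.0609, AT5G67150 at 0.0714 and AT1G50630 at 0.0853. AT2G43800 had signals of 674.6, 684.5 and 866.9 in wild type replicates 1, 2 and 3 and 511.3, 519.3 and 448.1 in mutant replicates 1, 2 and 3. *EXPA4*, whose product loosens cell walls, had 484, 498.4 and 600.1 in wild type replicates 1, 2 and 3, and 368, 315.7 and 287.3 in the mutant ones. Each was brightest in wild type replicate 3 and dimmest in mutant replicate 3, the arrays where *GI* was lowest and highest.

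**Figure D4:**
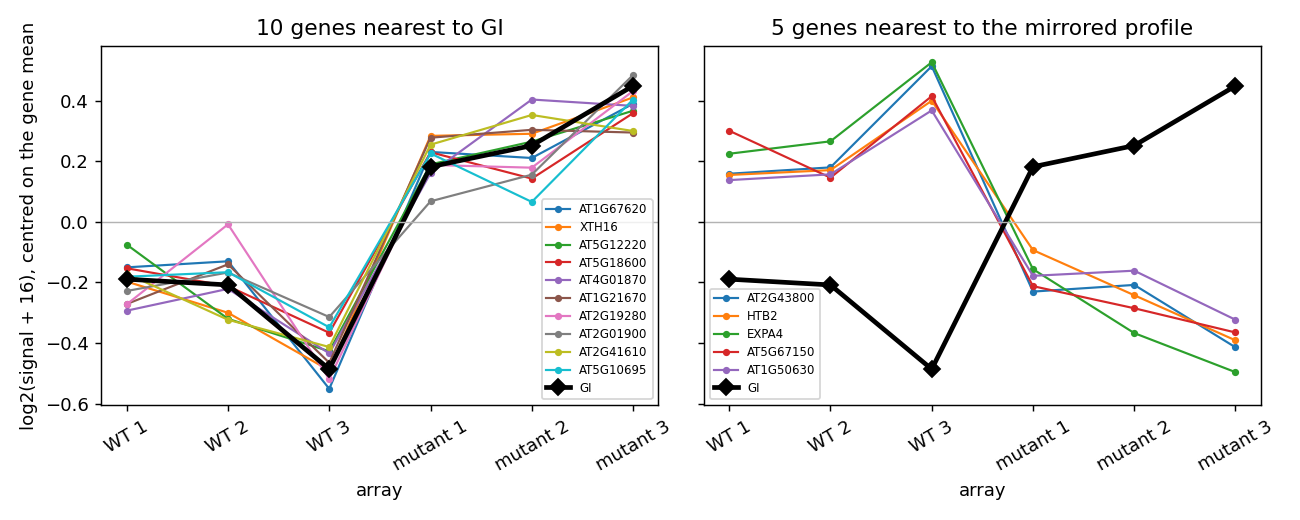
Log2(signal + 16) centred on each gene's mean (vertical axis) on the 6 arrays (horizontal axis; lines only join the values of a gene) for GI in black with the 10 nearest genes (left) and the 5 nearest to its mirror image (right). GI runs from −0.49 in wild type replicate 3 to 0.45 in mutant replicate 3, and the genes on the left lie within a root mean square distance of 0.0998 of it.

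With the group means removed, which leaves out the difference that chose *GI*, the nearest gene was *SMZ*, the flowering repressor named above. Its within-group deviations lay at a root mean square distance of 0.0157 from those of *GI*, where a gene without such deviations would lie at 0.125. Its signals were 239.8, 238.4 and 194.6 in wild type replicates 1, 2 and 3 and 165.8, 168.3 and 200.3 in mutant replicates 1, 2 and 3. Replicate 3 was thus low among the wild type arrays and high among the mutant arrays for both genes, while their group means differed in opposite directions. *PANB2*, which encodes an enzyme of pantothenate synthesis, followed at 0.0190, and *ACLA-3*, for a subunit of ATP-citrate lyase, at 0.0225. AT1G19140 and AT4G25620 lay at 0.0236 and 0.0271, with group differences of −0.01 ± 0.13 and −0.05 ± 0.13. These deviations rest on 3 arrays a group, and the 5 were picked as the nearest of 9444.

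*GI* and *FBP7* both lie on chromosome 1, with 125 annotated genes between them in the RefSeq order of assembly TAIR10.1. Probe sets of 1 named gene covered 51 of these, and 40 such probe sets were tested. Of the 40, 2 rose and 1 fell, where 0.522% and 0.533% of all tested probe sets did. Their median log2 difference was −0.01. No probe set was paired with *FBP7* itself in the annotation table used, so its level was not analysed here. Of the 10 measured genes on each side of *GI*, 16 of 20 were tested, and 1 of them passed, where 1.06% of all tested probe sets did. The median log2 difference of the 16 was 0.04, with 9 above 0.

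The neighbour that rose was AT1G22690, on the guard cell and epidermis list, the fifth measured gene before *GI* in gene order. It is also among the genes between *FBP7* and *GI* counted above as higher. Its signal was 1173.8, 1332 and 1027.4 in wild type replicates 1, 2 and 3 and 1994.4, 2229.8 and 2385.6 in mutant replicates 1, 2 and 3. The groups did not overlap, and the log2 difference was 0.90 ± 0.11 (SE; limma adjusted p = 0.000808). The call held in each of the 6 fits without 1 array. With no intensity trend in the fit the difference was again 0.90, but the call was lost (adjusted p = 0.113). With the RNA quality ratio as a covariate the difference was 0.85 and the call was lost too (adjusted p = 0.181). The ratio did not overlap between the groups, so that fit cannot tell it apart from genotype. The nearest genes on either side with a probe set of 1 named gene did not pass. AT1G22750 was at 0.07 ± 0.11 (limma adjusted p = 0.862), with signals of 951.4, 1018 and 1043.1 in the wild type replicates 1, 2 and 3 and 1180.9, 1014.4 and 975.1 in the mutant ones. AT1G22790, on the other side, was at −0.19 ± 0.16 (adjusted p = 0.702).

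**Figure D5:**
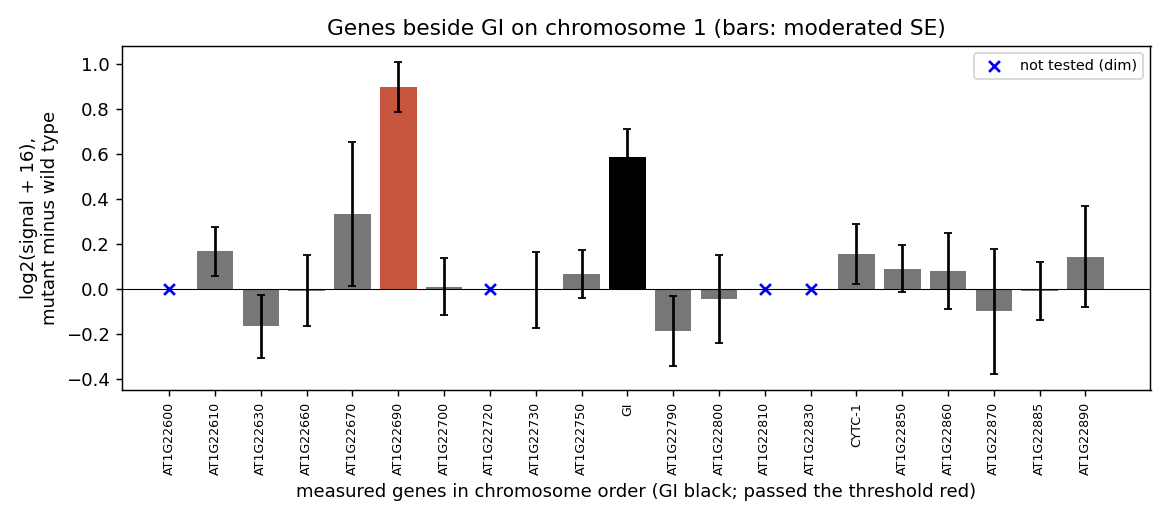
Difference on the log2(signal + 16) scale, mutant minus wild type (vertical axis), with moderated SE bars, for GI (black) and the 10 measured genes on each side of it in chromosome order (horizontal axis, not to scale); crosses mark 4 genes too dim to be tested. AT1G22690 stands at 0.90 (red, the 1 neighbour that passed), and the other 15 tested neighbours lie between −0.19 and 0.33.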

How the data were processed

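The deposited values are MAS5 signal intensities of 6 ATH1 arrays, per the submitters' processing notes, with version and settings not given in the sources used here. The 2% trimmed mean was 500 on each array, so each had been scaled by 1 factor. No detection calls were used. Of 22810 probe sets, 64 were controls; 13513 had 1 named gene, 503 several, and 8730 were not listed. Symbols came from RefSeq (assembly TAIR10.1), where 13436 of the 13513 were found.

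Deposited intensities were taken as log2(signal + 16) without further normalization. The lowest 25% by mean were left out, leaving 17059 probe sets, 9445 of them with 1 gene. Mutant and wild type were compared in R 4.3.3 with limma 3.58.1 (intensity trend, group as the single term, Benjamini-Hochberg adjusted p under 0.05), also tested on simulated data. Figures used matplotlib 3.10.9.

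*GI*, the lists and the rules were chosen with earlier results of these data known. Named genes were the tested genes of the clock, flowering and light lists, 2 from each other list by smallest p, the 10 genes nearest to *GI*, 5 nearest its mirror image, 5 by within-group deviations, and the neighbours that passed or lay nearest. The ranks of *FMA* and AT1G22690, and AT1G69570 and *FD*, were named after their values were seen.

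Alternatives were pseudocounts of 1 and 64, filters, quantile and median normalization, variance models, array weights, the replicate block, the RNA quality covariate, and each array left out. Replicate numbers did not pair arrays: same-numbered deviations correlated at −0.005, −0.025 and −0.032.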

Additional observations from a re-analysis of the deposited data

Results flagged for a closer look

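Control probe sets lie outside the comparison of genes, and 4 of their values were picked out because all 3 mutant arrays lay above all 3 wild type arrays, as for *GI*. For GAPDH, the ratio of 3′ to 5′ signal in the first control series was 3.13 ± 0.31 (SD, n = 3) in the mutant, against 2.50 ± 0.07 in the wild type. In the second series it was 1.36 ± 0.12 and 1.14 ± 0.11. The ubiquitin ratio of the first series was 3.79 ± 0.29 and 3.40 ± 0.12. The 5S ribosomal RNA control had a signal of 1570 ± 107 and 1050 ± 327. The groups overlapped in both actin ratios and in the second ubiquitin ratio.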

How the results depend on the processing

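The difference of *GI* ran from 0.46 to 0.65 on the log2 scale under the alternatives. The groups did not overlap for *GI*, so leaving out an array could not change the sign. With the replicate block it was 0.59 as before, and 211 probe sets passed in place of 180; the block ended the call of no gene the report calls. The count of 180 was 75 with no filter, 6 without the intensity trend, 24 with the RNA quality covariate, 316 at an adjusted p under 0.1 and 74 to 246 without 1 array. None of the 16 clock, photoperiod and light genes passed under any alternative. Of the 10 genes nearest to *GI*, 6 remained with a pseudocount of 64, 5 with the lowest 50% left out, 3 by Pearson correlation and 1 to 6 without 1 array. The causes of these changes were not tested. Some of the fits also held fewer arrays or probe sets. *M17* lost its call with no filter, without the trend, with robust eBayes and with the covariate. No detection calls were used, so signals near or below the 25th percentile of an array are uncertain.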
